A study of Rattus norvegicus with 8 samples.

Results

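Ribosomal protein genes were followed in the cortex of rats examined 24 h after a transient occlusion of the middle cerebral artery (tMCAO), a stroke model in which this artery is blocked for a time and then reopened. The genes were taken by symbol: a probe belonged to the set when its gene symbol in the deposited table began with Rpl or Rps followed by a digit or a p, and symbols beginning with Rps6k, which name kinases, were left out. This gave 72 genes on 101 probes, out of 11012 symbols and 23609 probes on the array. Of these, 40 symbols belonged to the large subunit (Rpl and Rplp) and 31 to the small subunit (Rps), and Rps19bp1, a protein that binds the small subunit protein S19, also matched the symbol pattern. Genes that the pattern misses, such as Rpsa, Fau and Rack1, were kept apart as a list of their own.

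The study profiled 4 Sprague Dawley rats after tMCAO and 4 Sprague Dawley rats after a sham operation, all taken at 24 h, with 1 animal per array. Total RNA came from the cortex on the operated side of a 4 mm brain section, and the labelled material was made from 100 ng by amplification over 2 rounds. On every array the animal's RNA carried Cy5 and a pool of sham cortex RNA carried Cy3, without a dye swap, so a log2(Cy5/Cy3) of 0 means the level of the pool and a dye effect is common to both groups.

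The cytosolic ribosome joins a large subunit, which forms peptide bonds, to a small subunit, which reads the messenger RNA. Its proteins are made in matched amounts and assembled with ribosomal RNA in the nucleolus, so their genes usually move as a group. Most of their transcripts begin with a terminal oligopyrimidine (TOP) tract, a C followed by a run of C and T bases, through which the kinase mTOR and the protein Larp1 set how much of the transcript is translated. Several ribosomal proteins have paralogs with narrower expression, and several act outside the ribosome, among them L5 and L11, which bind the ubiquitin ligase Mdm2.

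Promoter windows of RefSeq (rat assembly GRCr8) were matched by symbol to 58 of the 72 genes. Within 15 bases of the annotated start, a stretch of at least 6 bases made only of C and T and beginning with C was found on the sense strand in 42 of these 58 genes (72.4%), against 24.8% of the 33469 promoters in the RefSeq table. The 6 windows below run from 30 bases before the annotated start, and they are shown because the results turn on these genes: the paralogs Rps27l and Rps27, the large rises of Rpl39, Rps26 and Rps12, and Rpl3, which was not called. Capitals mark each such stretch from its first C inside the 15 bases searched. The windows lie at Rps27l chr8:76443628-76443687 (plus strand), Rps27 chr2:177964577-177964636 (minus strand), Rpl39 chrX:121195867-121195926 (minus strand), Rps26 chr7:1643375-1643434 (minus strand), Rps12 chr1:23500045-23500104 (plus strand) and Rpl3 chr7:113507961-113508020 (minus strand), all on GRCr8.
Rps27l: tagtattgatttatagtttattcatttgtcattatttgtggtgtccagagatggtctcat
Rps27: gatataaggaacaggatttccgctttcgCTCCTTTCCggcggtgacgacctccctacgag
Rpl39: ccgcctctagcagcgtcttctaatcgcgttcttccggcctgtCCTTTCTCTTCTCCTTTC
Rps26: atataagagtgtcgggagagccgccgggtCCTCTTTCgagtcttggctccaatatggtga
Rps12: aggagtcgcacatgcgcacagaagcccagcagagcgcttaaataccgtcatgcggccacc
Rpl3: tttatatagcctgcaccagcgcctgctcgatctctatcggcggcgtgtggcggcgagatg
Rps27, Rpl39 and Rps26 held the stretch and Rps27l, Rps12 and Rpl3 did not. A match is a feature of the annotated sequence, and a window without one says only that these letters are absent near that annotated start. The stretch was held by 23 of the 33 matched genes that were called higher in tMCAO (by the test described next) and by 9 of the 12 matched genes that were measured and not called.

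Of the 72 genes, 57 had a probe with a value on all 8 arrays and entered the comparison, as the mean of their complete probes. The other 15 had a missing value on every probe: Rpl5, Rpl13, Rpl15, Rpl22l1, Rpl24, Rpl32, Rpl34, Rpl37, Rpl37a, Rplp1, Rps4x, Rps6, Rps7, Rps10 and Rps23. Each gene was compared between groups with limma over all 17928 features of the table, and a gene was called at a Benjamini-Hochberg adjusted p under 0.05. Over all features the log2 ratios had a median of 0 on every array, and tMCAO array 4 showed the smallest spread of the tMCAO arrays, with an SD of 0.36 against 0.61 to 0.73 on the other 3 and 0.22 to 0.25 on the sham arrays.

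Ribosomal protein transcripts were higher in tMCAO than in sham cortex as a group. Of the 57 measured genes 43 (75.4%) were called higher and 0 lower, where 15.0% of all features were called higher and 16.0% lower. The other 14 genes were not called. The median difference was 0.55 on the log2 scale, or 1.46-fold, against -0.05 over all features, and 55 of the 57 differences were above 0, with a range from -0.21 to 2.02. After quantile normalization of the log ratios, which gives every array the same spread, 28 of the 57 were called higher and 0 lower, against 8.57% and 7.97% of all features. In bulk tissue, a changed number of cells of a type and a changed amount of RNA per cell cannot be told apart.

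**Figure D1:**
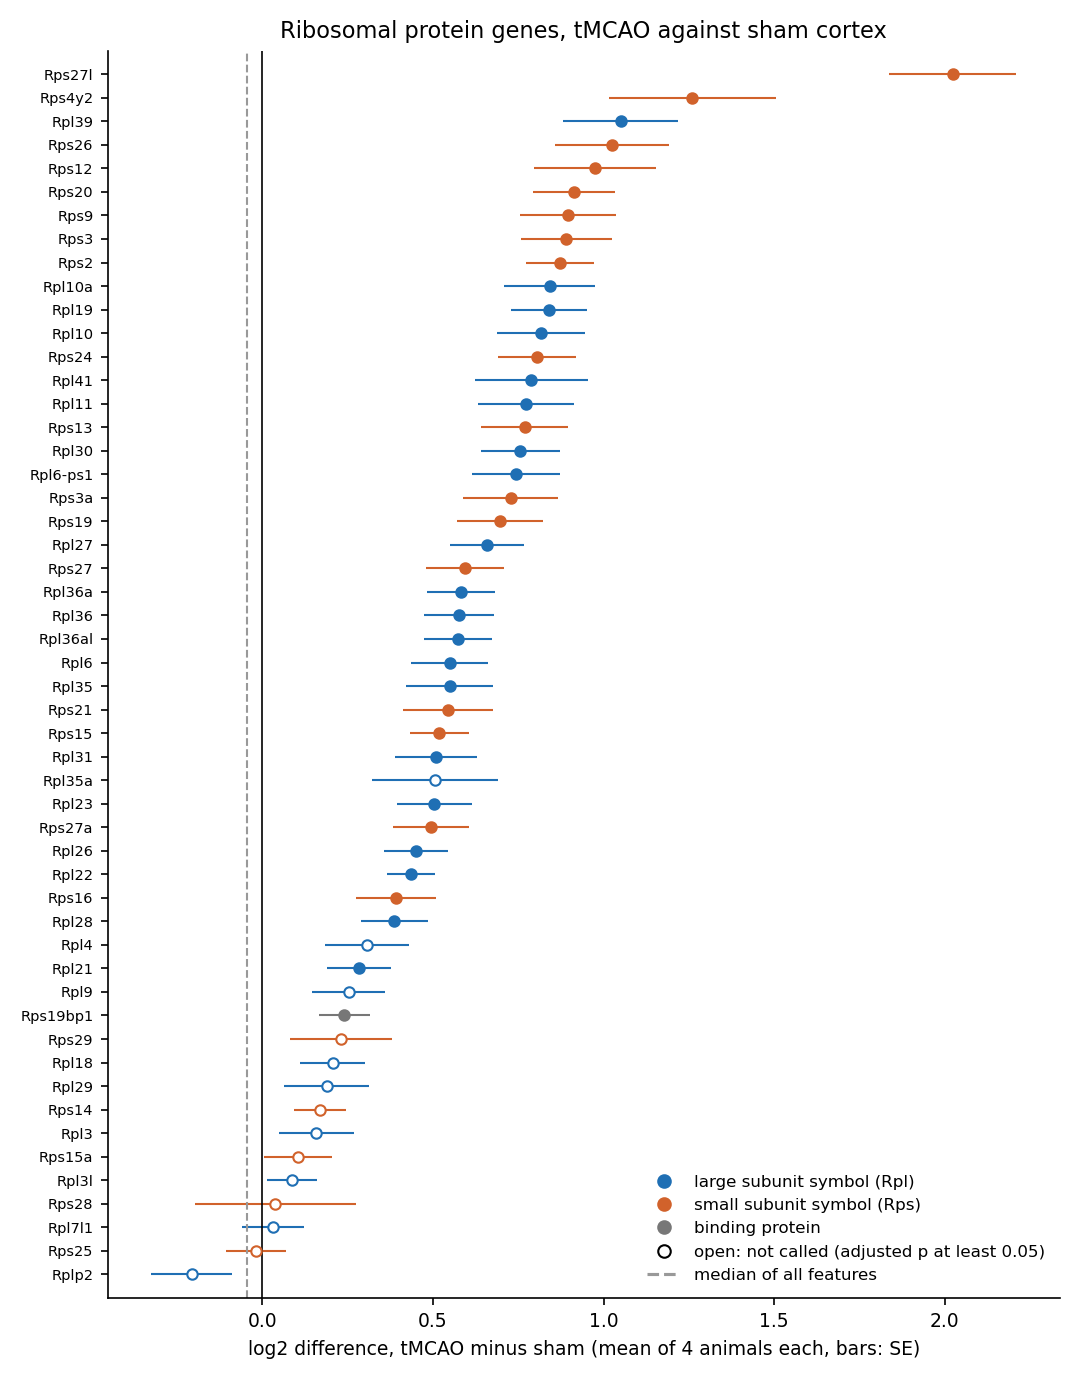
Log2 difference between tMCAO and sham cortex for 52 of the 57 measured ribosomal protein genes, as the mean of 4 animals per group with the standard error as bars, with filled points for called genes and the median of all features as a dashed line. Rps27l stands apart at 2.02, most genes lie between 0.2 and 1.1, and only Rps25 and Rplp2 lie below 0.

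The 4 tMCAO arrays differed in how far the set moved. The median log2 ratio of the 57 genes to the pool was -0.07, 0.07, -0.04 and -0.01 on sham arrays 1 to 4 and 0.73, 0.62, 0.59 and 0.35 on tMCAO arrays 1 to 4. All 4 tMCAO medians lay above all 4 sham medians. Among the 43 called genes, tMCAO array 4 gave the lowest tMCAO value in 36 and tMCAO array 1 the highest in 30. Without tMCAO array 4 all 43 calls remained and 2 genes were added, while the shares of all features called higher and lower were then 21.8% and 24.1%. The groups did not overlap in 43 of the 57 genes, in each with tMCAO above sham, against 13.8% of all features with tMCAO above and 16.2% with tMCAO below. Rps16 was called although its groups overlapped, and Rps14 was not called although they did not.

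**Figure D2:**
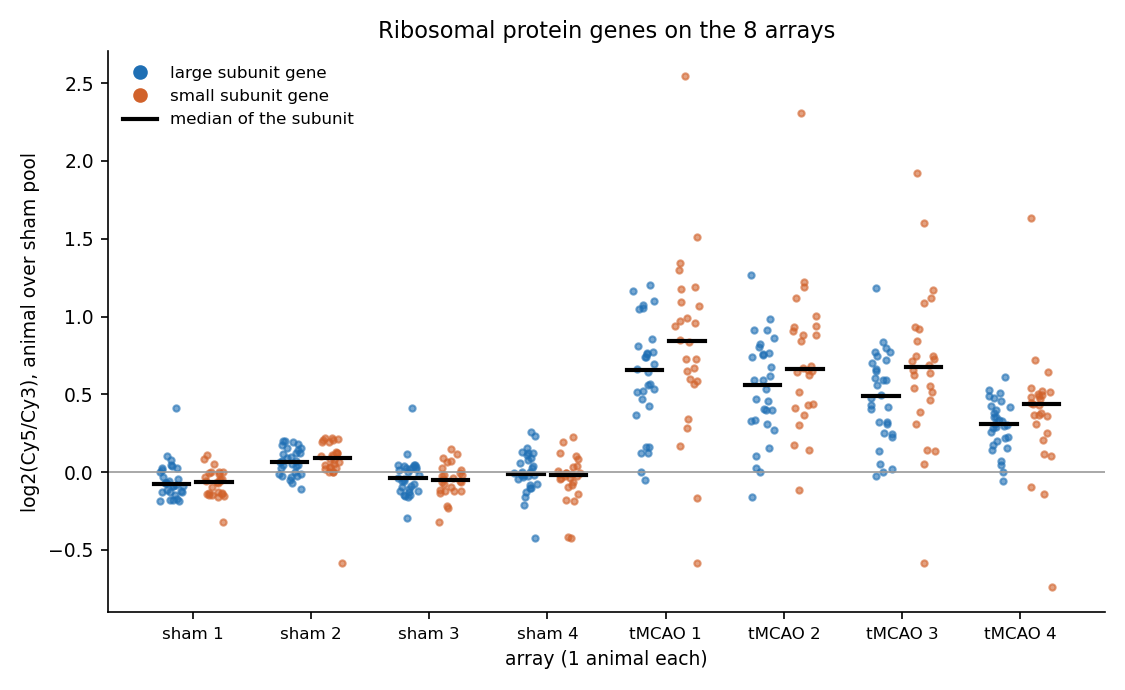
Log2(Cy5/Cy3) of the measured large subunit genes (blue) and small subunit genes (orange) on each of the 8 arrays, 1 point per gene, with the median of the subunit as a bar. The sham medians lie near 0, the tMCAO medians above 0 with tMCAO 4 lowest, and Rps27l is the top point on all 4 tMCAO arrays.

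In the sham animals the set shifted from array to array: 13 of the 57 genes lay above the pool on sham array 1, 45 on sham array 2, 19 on sham array 3 and 20 on sham array 4. The lowest and highest sham medians differed by less than the gap to the lowest tMCAO median. In the same fit 0 of the 57 genes were called between the sham arrays and the pool at an adjusted p under 0.05. Over all features that comparison called 0.0335% higher and 0.0167% lower, so a count of 0 is near the background share.

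Among small subunit genes the largest rise was that of Rps27l, a paralog of Rps27. Its log2 ratios were 0.00, 0.02, 0.06 and 0.23 in sham animals and 2.54, 2.31, 1.93 and 1.63 in tMCAO animals. Every tMCAO value lay far above every sham value, and the gene had the highest ratio of the set on each tMCAO array. The difference was 2.02 ± 0.19 (SE, n = 4 per group), or 4.07-fold, with an adjusted p of 0.00171. Its Cy5 intensity rose from a mean of 1.40 to 6.47, far below the piles of near-equal bright values described further on. Rps27 itself, a zinc finger protein of the small subunit, had log2 ratios of -0.14, 0.11, -0.02 and 0.08 in sham and 0.73, 0.65, 0.71 and 0.31 in tMCAO. Its groups did not overlap either, at a difference of 0.59 ± 0.11 (adjusted p = 0.0081). The paralogs are closely related in coding sequence, and how far their probes cross-hybridise was not measured here.

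Rps4y2, a copy of the gene for S4, had the next difference at 1.26 ± 0.24 (adjusted p = 0.0082), from 2 probes that moved by different amounts. The brighter probe had log2 ratios of 0.36, -0.19, 0.18 and -0.53 in sham and 2.15, 1.90, 2.42 and 0.77 in tMCAO. The dimmer probe had -0.19, 0.19, 0.00 and -0.32 in sham and 0.87, 0.49, 0.78 and 0.19 in tMCAO. On the brighter probe every tMCAO value lay above every sham value, while on the dimmer probe tMCAO animal 4 met sham animal 2. The probe differences were 1.86 and 0.66, and the dimmer probe had Cy5 intensities of only 0.07 to 0.12 in steps of 0.01. Within rounding the gene's difference lay between 1.02 and 1.50.

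Rps26, a protein at the messenger exit channel, had log2 ratios of -0.07, 0.12, 0.02 and 0.10 in sham and 1.34, 1.22, 1.17 and 0.54 in tMCAO. The tMCAO animals all lay above the sham animals, with animal 4 lowest, and the difference was 1.03 ± 0.17, or 2.04-fold (adjusted p = 0.00523). Rps12 had -0.15, 0.19, -0.02 and -0.10 in sham and 1.30, 1.00, 1.08 and 0.44 in tMCAO, again without overlap, for a difference of 0.97 ± 0.18 (adjusted p = 0.00703). Rps2, which lines the messenger entry channel, had -0.01, 0.13, -0.10 and -0.01 in sham and 1.10, 0.84, 0.84 and 0.72 in tMCAO. The groups lay well apart, at a difference of 0.87 ± 0.10 (adjusted p = 0.0022). Rps3, another entry channel protein with a role in DNA repair, had -0.15, 0.08, -0.22 and -0.03 in sham and 1.07, 0.93, 0.75 and 0.50 in tMCAO. Its groups did not overlap, at a difference of 0.89 ± 0.13 (adjusted p = 0.00417). Rps20, a protein of the head of the subunit, and Rps9 of its body rose by similar amounts, at 0.91 and 0.90. These 6 genes, Rps27l, Rps4y2 and Rpl39 were among the 10 largest rises.

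Of the small subunit proteins with known roles outside the ribosome or in disease, Rps19, mutated in human Diamond-Blackfan anaemia, rose by 0.70 ± 0.13 (adjusted p = 0.00682), and its 2 probes gave 0.68 and 0.71. Rps27a, made as a fusion with ubiquitin, rose by 0.49 ± 0.11 (adjusted p = 0.0133), with 0.36 to 0.62 within rounding. In both genes the groups did not overlap. Rps19bp1, which is no structural protein of the ribosome, rose by 0.24 ± 0.07, or 1.18-fold (adjusted p = 0.0407). It lost this call in 11 of 22 alternative settings and kept its direction in each.

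By the mean over probes, the largest difference among large subunit genes was that of Rpl39, a short protein at the exit tunnel. Its log2 ratios were 0.01, 0.10, -0.14 and -0.02 in sham and 1.20, 1.27, 1.18 and 0.51 in tMCAO. The tMCAO animals 1 to 3 lay close together and animal 4 well below them, still above every sham animal. The difference was 1.05 ± 0.17, or 2.07-fold (adjusted p = 0.00494), and it was 1.23 without tMCAO animal 4. The brighter probe of Rpl22 alone gave 1.07, so the order of these genes is not settled. Rpl10a, the protein of the L1 stalk, followed at 0.84 ± 0.13 (adjusted p = 0.00495), and Rpl19, which bridges the subunits, at 0.84 ± 0.11 (adjusted p = 0.00334).

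Rpl11, which forms a complex with L5 and the 5S ribosomal RNA that binds Mdm2, had log2 ratios of -0.18, 0.07, -0.12 and -0.01 in sham and 0.74, 0.98, 0.80 and 0.33 in tMCAO. The groups did not overlap and the difference was 0.77 ± 0.14 (adjusted p = 0.00681). On 3 of the 4 tMCAO arrays its Cy5 intensity lay at or above a pile of near-equal bright values, described further on. Its partner Rpl5 was among the genes without a complete probe: sham arrays 2 and 3 gave -0.07 and -0.08 and tMCAO arrays 1 to 3 gave 0.10, 0.11 and 0.20. These 3 tMCAO values lay above the 2 sham values, but in the fit that kept missing values the difference of 0.21 was not called (adjusted p = 0.206). Its Cy5 intensities on these tMCAO arrays, 19.26, 24.58 and 23.87, also lay at or above that pile.

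Paralogs and copies of large subunit genes are given side by side, and no difference within a pair was tested. Rpl36a and its near copy Rpl36al rose by 0.58 and 0.57, with adjusted p-values of 0.00592 and 0.00598, and how far their probes can be told apart was not measured here. Rpl6 rose by 0.55 and its copy Rpl6-ps1 by 0.74. Rpl3, the protein nearest the peptidyl transferase centre, had log2 ratios of 0.08, -0.05, -0.12 and 0.11 in sham and 0.16, 0.40, 0.14 and -0.06 in tMCAO. These overlapped, as did those of its muscle paralog Rpl3l, and neither was called, at 0.16 ± 0.11 and 0.09 ± 0.07. Rpl7l1, a homolog of Rpl7 found in precursors of the large subunit, differed by 0.03 ± 0.09 and was not called.

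Further called genes rose by smaller amounts, and in each of them every tMCAO animal lay above every sham animal. In the small subunit the 5 genes Rps24, Rps13, Rps3a, Rps21 and Rps15 had differences from 0.80 (Rps24) down to 0.52 (Rps15). In the large subunit the 9 genes Rpl41, Rpl30, Rpl27, Rpl36, Rpl35, Rpl31, Rpl23, Rpl26 and Rpl28 had differences from 0.79 (Rpl41, a very short basic peptide) down to 0.39 (Rpl28).

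Rpl21, at 0.28 ± 0.09 (adjusted p = 0.0499), and Rps16, at 0.39 ± 0.12 (adjusted p = 0.0366), were called close to the threshold and lost the call in 15 and 12 of 22 alternative settings. The 14 genes that were not called were Rpl3, Rpl3l, Rpl4, Rpl7l1, Rpl9, Rpl18, Rpl29, Rpl35a, Rplp2, Rps14, Rps15a, Rps25, Rps28 and Rps29. The largest of their differences were 0.51 ± 0.18 for Rpl35a (adjusted p = 0.0668), 0.31 ± 0.12 for Rpl4, which lines the exit tunnel (adjusted p = 0.088), and 0.25 ± 0.11 for Rpl9 (adjusted p = 0.103). Sham and tMCAO values overlapped in each of these 3. On 3 tMCAO arrays the Cy5 intensity of Rpl9 lay at or above the pile of near-equal bright values described further on. Whether this made its difference smaller was not tested. The differences below 0 were -0.02 ± 0.09 for Rps25 and -0.21 ± 0.12 for Rplp2, a protein of the acidic stalk that recruits translation factors. For Rplp2 the complete probe had Cy5 intensities of 0.03 to 0.08, a few steps of the rounding, and its difference lay anywhere between -0.99 and 0.57 within rounding. The complete probe of Rps28 was as dim, with a range of -0.90 to 0.97, so the sign of neither difference is settled by these probes.

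Genes of both subunits were higher in tMCAO. Of the large subunit genes 21 of 30 were called higher (70.0%), with a median difference of 0.51, and of the small subunit genes 21 of 26 (80.8%), with a median of 0.67. On the tMCAO arrays the small subunit median exceeded the large subunit median by 0.19, 0.10, 0.19 and 0.13, and on the sham arrays the gap was between -0.01 and 0.02. Without paralogs and copies the medians were 0.51 over 26 large subunit genes and 0.62 over 24 small subunit genes, and 19 of each were called. These gaps describe the genes that had a complete probe, 10 large and 5 small subunit genes being left out, and no test was made between the subunits.

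Several probes of a gene did not always give the same answer. Of the 17 genes with more than 1 complete probe, 8 had both probes called higher, 8 had only 1 called higher and Rpl7l1 had none, and the median gap between the probes of a gene was 0.206. In 5 genes the probes had opposite signs, and in 4 of them the gap exceeded 0.5. For Rpl22, an RNA-binding protein needed in T cell development, the brighter probe gave -0.06, 0.03, -0.09 and -0.06 in sham and 1.21, 1.16, 1.03 and 0.69 in tMCAO. Its dimmer probe gave -0.10, -0.05, 0.00 and 0.05 in sham and -0.28, -0.36, -0.40 and 0.16 in tMCAO. The brighter probe separated the groups upward, at 1.07 (adjusted p = 0.00216), while on the dimmer probe 3 tMCAO animals lay below and 1 above the sham animals, at -0.20 and not called.

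For Rps25, a protein needed for initiation at some internal entry sites, the brighter probe gave -0.09, 0.06, -0.11 and -0.08 in sham and 0.29, 0.47, 0.50 and 0.05 in tMCAO. The dimmer probe gave 0.08, 0.02, -0.12 and -0.05 in sham and -0.62, -0.69, -0.22 and -0.23 in tMCAO. On the brighter probe tMCAO animal 4 fell within the sham range, and on the dimmer probe every tMCAO value lay below every sham value. They were called in opposite directions, at 0.38 (adjusted p = 0.0354) and -0.42 (adjusted p = 0.0386), so the mean near 0 stands for neither. At the level of probes 53 of the 74 complete member probes were called higher, against 14.5% of all probes, and this Rps25 probe was the only one called lower, against 15.1% of all probes. The probe pairs of Rpl18 (0.63 and -0.21) and Rps15a (0.46 and -0.25) also disagreed, and in both the dimmer probe was the lower one and not called. The brighter probes were called higher (adjusted p = 0.0125 and 0.0203), while the means over both probes were not called. The dimmer Rpl18 probe had Cy5 intensities of only 0.04 to 0.06, so its sign is not settled. Within rounding the difference of Rpl18 lay between -0.10 and 0.51.

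**Figure D3:**
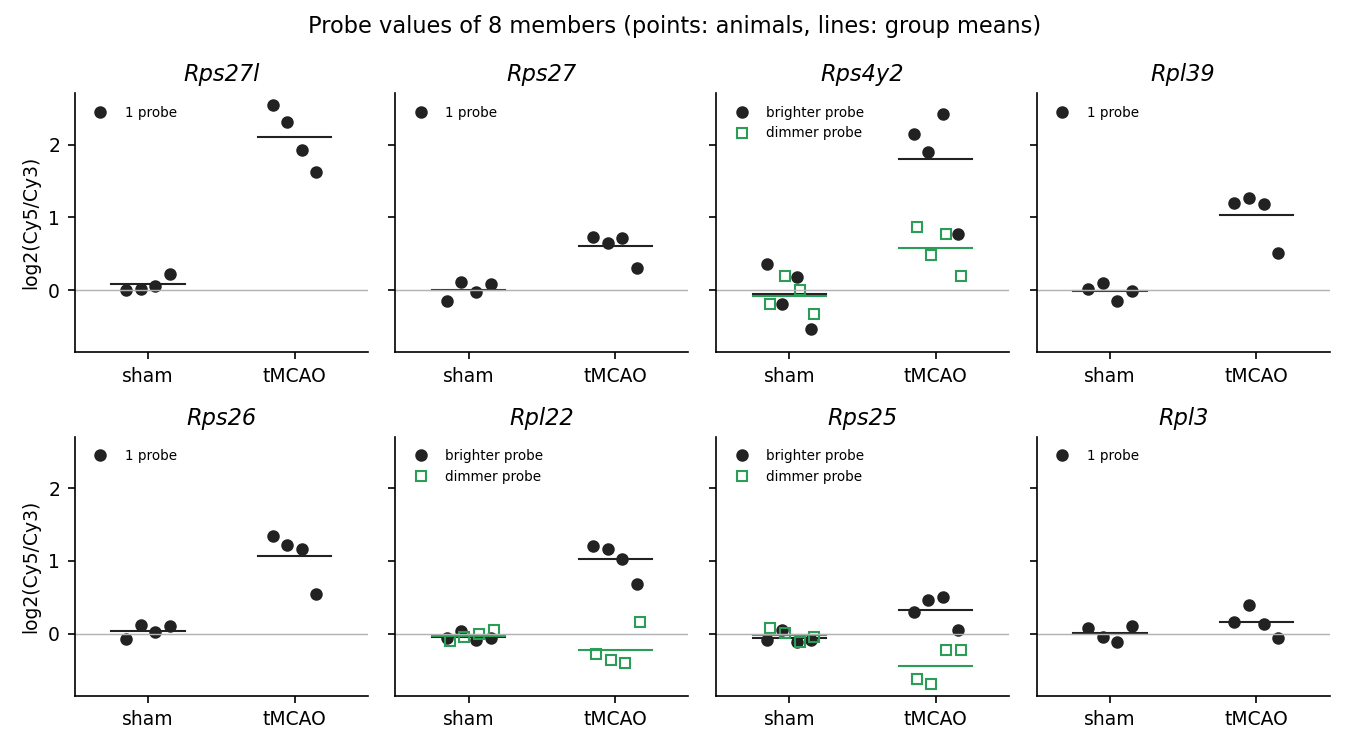
Log2(Cy5/Cy3) of 8 ribosomal protein genes by probe, 1 point per animal in the sham and tMCAO groups, with group means as lines and, where a gene had 2 complete probes, the dimmer probe as open squares. Rps27l, Rpl39 and Rps26 separate the groups, the probes of Rpl22 and Rps25 part in opposite directions after tMCAO, and the Rpl3 groups overlap.

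Ribosomal protein transcripts were among the brightest on the array. In 9 of 16 channels bright probes formed a pile of near-equal values, whose lower edge is called the ceiling here although values above it occur. The lowest ceiling, 19.2, was in the Cy5 channel of tMCAO array 1, where the highest value was 22.43. Of the member probes 26.7% had a missing value, against 0.987% of all probes. All 27 of them were missing on tMCAO array 4, and 26 reached 19.2 on another array or channel. The 27th belonged to Rpl22l1, the dim paralog of Rpl22. The members thus made up 11.6% of all probes with a missing value and 12.4% of the complete probes that reached 19.2.

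Among the 74 complete member probes, Cy5 was at or above the ceiling of its channel on at least 1 tMCAO array in 24 and on no sham array in any. Of the called genes 18 had such a probe, and whether these intensities are compressed was not tested. Rpl39, for instance, had Cy5 intensities of 10.94, 12.31, 9.83 and 11.16 in sham and 22.42, 25.92, 22.96 and 15.63 in tMCAO, and the values of tMCAO animals 1 and 2 were at or above the ceiling. Complete member probes that reached 19.2 had a median difference of 0.54, with 19 of 24 called higher, and those below it had 0.56, with 34 of 50 called higher. Over all probes the corresponding shares called higher were 38.3% and 14.3%. The classes were set by the highest intensity on any array, tMCAO arrays included. A rise can thus itself place a probe in the brighter class, so this split cannot tell whether the rise depends on brightness.

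When probes with a missing value were kept wherever each group had at least 2 values, a setting chosen after seeing the data, 16 member probes were added. Of these 5 were called higher and 0 lower, against 14.4% and 15.2% of all probes in that fit, with a median of 0.31 and a range of 0.02 to 0.67. The highest were the bright probe of Rps28 at 0.67 (adjusted p = 0.0112) and a probe of Rps4x, the X-linked S4 gene, at 0.60 (adjusted p = 0.00765). The Rps4x probe had log2 ratios of -0.02, -0.04, 0.07 and -0.28 in sham and 0.55, 0.55 and 0.51 in tMCAO animals 1 to 3, with Cy5 at or above the ceiling on those 3 arrays. These tMCAO ratios lay above the sham ratios, but in both probes the pool signal fell while the Cy5 signal hardly rose or fell. The mean Cy5 intensity of the Rps28 probe was 22.37 in sham and 22.52 in tMCAO, and its pool intensity 21.9 and 14.1. For the Rps4x probe Cy5 was 23.78 in sham and 22.54 in tMCAO, and the pool 24.9 and 15.6. The tMCAO means cover animals 1 to 3, and the Rps28 probe too had Cy5 at or above the ceiling on these 3 arrays. Whether these Cy5 means hide a rise was not tested. Rps6, the substrate of the S6 kinases, had values on 1 sham array and 2 tMCAO arrays and was not tested.

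**Figure D4:**
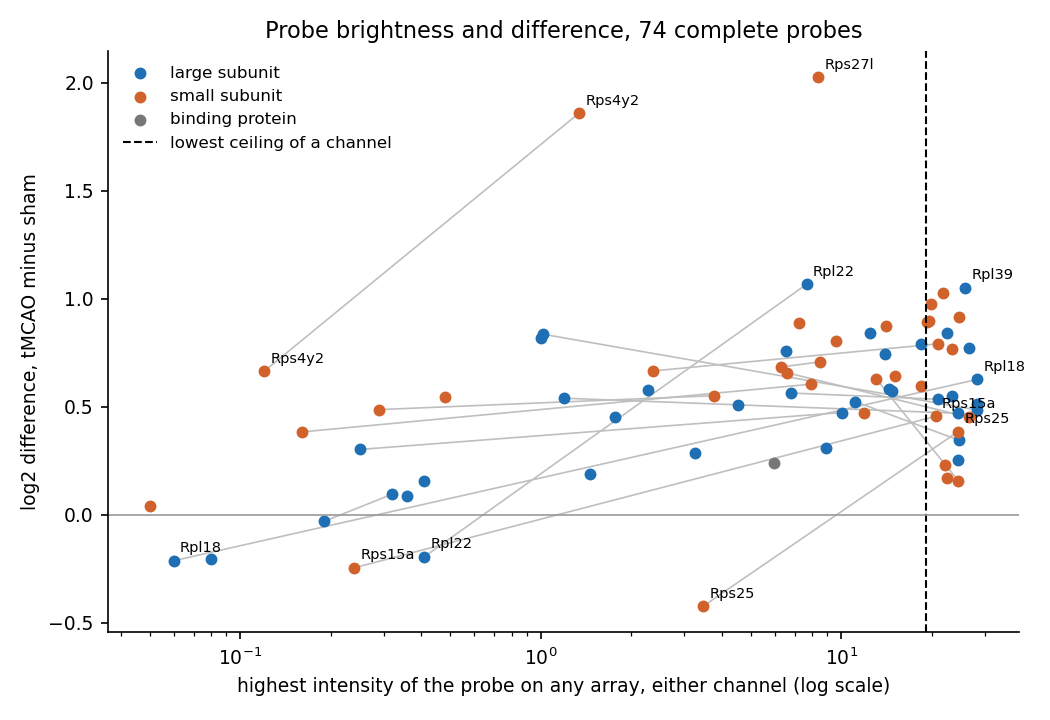
Log2 difference between tMCAO and sham against the highest intensity of the probe on any array (log axis), for the 74 complete probes of ribosomal protein genes, with probes of 1 gene joined by a line and the lowest ceiling of 19.2 dashed. Differences between 0.2 and 1.1 occur across the bright range, and the dimmer probe of Rpl18, Rps15a, Rpl22 and Rps25 lies below 0.

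Bright features of the table as a whole were counted for comparison. The 1850 features with a mean Cy5 intensity at or above the lower quartile of the members, 2.58, had a median difference of -0.07, with 20.7% called higher and 27.4% lower. Of the 43 members in that range 35 were called higher. Whether brightness has a part in the rise of the members was not tested.

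The signal of the pool, which should be alike on all arrays, was also compared between tMCAO and sham arrays. For the members it was higher on the tMCAO arrays in 25 of 57 genes and lower in 6, against 14.3% and 12.4% of all features, with a median shift of 0.11. In the animal's own channel, without the pool, 46 of the 57 genes were called higher and 0 lower, against 16.7% and 15.1% of all features, with a median of 0.71. The ratio to the pool was thus smaller than the rise of the Cy5 signal for most members. Some genes did not follow this. For Rpl10, a protein that joins the large subunit late in its assembly, the ratio rose by 0.82 ± 0.13 (adjusted p = 0.00473). Its mean Cy5 intensity was 0.728 in sham and 0.815 in tMCAO, while its pool intensity was 0.728 on the sham arrays and 0.462 on the tMCAO arrays. The Cy5 signal of Rpl10 alone differed by 0.14 and was not called, nor was that of Rpl27, at 0.18. The value of Rpl27 averages 2 probes that moved in opposite directions. Mean Cy5 went from 15.31 in sham to 24.32 in tMCAO on the brighter probe, at or above the ceiling on 3 tMCAO arrays. On the dimmer probe it went from 0.94 to 0.78. Array processing and group cannot be told apart in these pool values.

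Within single arrays, the p-values in the authors' deposited table compare the animal with the pool. At a p below 0.01, 52 member probes were higher and 1 lower than the pool on tMCAO array 1. Both directions together made 54.6% of 97 probes, against 35.4% of all probes in that table. The authors' deposited table gave 44 higher and 1 lower on tMCAO array 2 (45.9% against 33.6%, again both directions together). It gave 41 higher and 0 lower on array 3 (44.1% against 29.0%) and 16 higher and 0 lower on array 4 (21.6% against 11.7%). Over all probes the authors' deposited table gave 4074 higher and 4256 lower on tMCAO array 1, and 3799 and 4129 on array 2. On tMCAO arrays 3 and 4 it gave 3410 and 1688 higher, and 3417 and 1063 lower. On the sham arrays it gave 0, 0, 0 and 1 member probe, against 2.08%, 1.88%, 2.73% and 2.27% of all probes.

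Other genes of the ribosome and of its supply were counted in the same fit, against the same 15.0% of features called higher and 16.0% lower. Among ribosomal proteins outside the symbol pattern, Rpsa rose by 0.59 and Rack1, a scaffold protein of the small subunit, by 0.58. Of 52 measured ribosome biogenesis genes 26 were called higher and 0 lower, with a median of 0.33. They included the nucleolar proteins Npm1 (1.14) and Fbl (1.13, the methyltransferase fibrillarin), the helicase Ddx21 (0.92) and the assembly factor Ebna1bp2 (0.90). Of 16 other transcripts known for a TOP tract 9 were called higher and 0 lower, among them Vim (1.96, an intermediate filament of reactive glia), Pabpc1 (1.04, a poly(A)-binding protein), the elongation factor Eef1b2 (0.84) and Btf3 (0.63).

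The mitochondrial ribosome, which has its own set of proteins, did not share the pattern of counts. By the ratio to the pool, 7 of 64 measured genes were called higher and 4 lower, with a median of -0.04. Those that rose most were Mrpl52 (0.49), Mrpl47 (0.46), Mrps18c (0.46) and Mrps12 (0.45), and those that fell were Mrps18a (-0.43), Mrps25 (-0.41), Mrps9 (-0.33) and Mrps5 (-0.23). In the Cy5 signal alone 16 of the 64 were called higher and 1 lower, against 16.7% and 15.1% of all features, with a median of 0.17. Their pool signal was higher on the tMCAO arrays in 30 genes and lower in 1, against 14.3% and 12.4% of all features. A shift of the pool signal was thus not particular to the cytosolic set. Of 16 genes of mTOR signalling and ribosomal S6 kinases 4 rose and 4 fell. The translation repressor Eif4ebp1 rose by 1.39, and Rps6ka1, Rps6ka3 and Larp1 rose by 0.72, 0.50 and 0.39. The mTOR inhibitor Deptor fell by 0.82, the mTOR complex members Mlst8 and Rptor by 0.69 and 0.37, and the kinase Akt1 by 0.53. Deptor was dim, with a mean Cy5 intensity of 0.05 in steps of 0.01, so the size of its fall is uncertain. Of 10 genes that watch over ribosomal proteins and stalled ribosomes 4 rose, among them Zfp598 (0.60) and Mdm2 (0.58), while the cell cycle inhibitor Cdkn1a was not called, at 0.27.

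**Figure D5:**
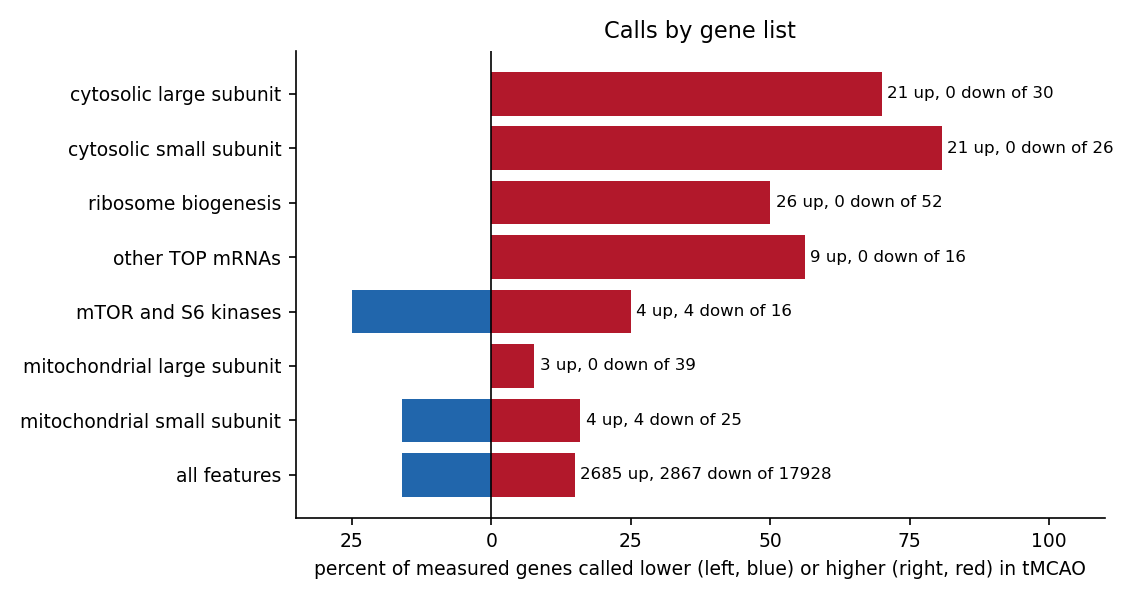
Percent of measured genes called lower (left) or higher (right) in tMCAO than in sham cortex for each gene list, with the counts beside the bars. The cytosolic subunits (21 of 30 and 21 of 26 higher), biogenesis genes and other TOP transcripts lie to the right, and the mitochondrial subunits lie near or below the share of all features.

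Markers of cell types moved with the groups as well. Of 10 microglia and macrophage markers 8 were called higher, with list medians of -0.13 to 0.05 on the sham arrays and 1.05, 1.28, 1.25 and 0.51 on tMCAO arrays 1 to 4. Of 4 endothelial markers 3 were called higher, and of 6 neuronal markers 5 were called lower, with list medians of -0.07 to 0.03 in sham and -0.86 to -0.29 in tMCAO. The astrocyte marker Gfap rose by 1.42 while 2 of the other 5 astrocyte markers fell, and 2 of 4 lymphocyte markers rose. Of the neutrophil, oligodendrocyte and red cell markers 0 of 3, 0 of 6 and 0 of 2 were called. The neutrophil list varied widely between animals, with a median difference of 1.60 and list medians of -0.74 to 1.61 in sham and -0.74 to 2.78 in tMCAO. As for the ribosomal protein genes, tMCAO array 4 had the smallest shift in the microglial and the neuronal lists. The part of these cell type differences in the ribosomal protein result was not tested.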

How the data were processed

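Cy5 and Cy3 intensity values of 23609 probes on 8 2-colour Agilent arrays were used as the authors deposited them, linear and mostly rounded to 2 decimals. Agilent Feature Extraction 8.5.1.1 was the image software, per the submitters' processing notes, and for the scaling of the intensities no source used here gives a method. Per the file headers, the authors also gave a p-value per probe and array for the difference between the channels (error model not stated). The deposited value table held log10 ratios of the same intensities (largest gap 0.0165 on the log2 scale) and served as an alternative.

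From these values log2(Cy5/Cy3) was computed for the 23376 probes with a value on every array and averaged per symbol, after updating symbols with RefSeq names (GRCr8), which gave 17928 features. Group means were compared by the moderated linear model of limma (version 3.58.1, run under R 4.3.3), with 2-sided p-values adjusted by Benjamini-Hochberg over all features. No genome coordinates of probes were used. The ceiling of a channel was the lowest bin of 0.25, from an intensity of 15 upward, with at least 25 probes, less 0.05. The replicates are separate animals, and their number limits the precision. Ranges within rounding move each intensity by 0.005. The pipeline was tested on simulated data. The genes named were the 10 largest rises, uncalled extremes, genes with disagreeing, missing or ceiling probes, paralogs, genes with known roles, and up to 4 called genes of each companion list. The members, the companion lists and the tests were chosen with earlier results of these data known. Alternatives were other centring, normalization, channels, controls, filters, variance models, probe summaries, thresholds, a replicate block and leaving out arrays. Some genes of the set and of the lists are counted in the totals and are not reported here by name.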

Additional observations from a re-analysis of the deposited data

Results flagged for a closer look

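In each measured gene the 4 sham and the 4 tMCAO values were searched for an animal far from the other 3 of its group, in 106 groups of values that could be tested. In 6 of them the gap to the nearest other animal took up more of the group's range than Dixon's critical value for 4 samples, where chance alone flags about 1 in 20 groups. Rpl39 and Rps13 had low log2 ratios in tMCAO animal 4, at 0.5055 against 1.18 to 1.268 and at 0.3698 against 0.8394 to 0.9228 in the other 3. Rpl21 was high in tMCAO animal 1, at 0.6458 against 0.325 to 0.3361. In sham animal 2, Rpl31 lay at 0.0519 against -0.1718 to -0.1567 and Rps27a at 0.1065 against -0.141 to -0.1319. The dim probe of Rps28 gave 0.415 in tMCAO animal 2 against -0.737 to -0.585, at intensities of a few rounding steps.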

How the results depend on the processing

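The count of 43 genes called higher stayed within 1.5 times under all alternatives run except quantile normalization of the log ratios, where 28 were called and all 28 were among the 43. It was 31 at an adjusted p under 0.01, where 6.04% of all features were called higher. When each array was left out in turn it was 39 to 45, against 10.1% to 21.8% of all features. The count of genes called lower was 0 in the reported fit and in each leave-one-out fit, against 16.0% and 9.49% to 24.1% of all features. It was 1, the dimmer Rps25 probe, with every probe on its own, with missing values kept as well, and without probes at or above the ceiling. The median of the small subunit genes moved from 0.6685 to 0.8465 with the Cy5 signal alone and to 0.4865 with quantile normalization. Leave-one-out medians were 0.5877 to 0.7404 for small and 0.4472 to 0.5964 for large subunit genes. The difference of Rps25 reversed to 0.3845 with the brightest probe per gene (adjusted p = 0.03333). Of 1018 values for 47 named genes under the alternatives, 944 kept direction and side of the threshold, 53 lost and 20 gained a call. The cause of these changes was not tested. Shared replicate numbers do not pair the animals: correlations of same-numbered deviations were 0.042, -0.0398, 0.0159 and -0.0459. With the replicate number as a block 38 genes were called higher, all among the 43, and 0 were called lower. The shares of all features were then 11.3% and 10.9%, and the subunit medians stayed at 0.5079 and 0.6685. The rounding of dim intensities limits what can be measured, and whether bright ones are compressed was not tested.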
